A study of Rattus norvegicus with 24 samples.

Results

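Oxidative phosphorylation is the last stage of aerobic energy metabolism, in which 4 protein complexes of the inner mitochondrial membrane (I to IV) pass electrons from food to oxygen and complex V, the ATP synthase, uses the resulting proton gradient to make ATP. Liver cells are rich in mitochondria and draw on this pathway for gluconeogenesis, urea synthesis and the handling of fatty acids. Most subunits are encoded in the nucleus; a core set is encoded in mitochondrial DNA, and no gene of that genome had a probe under its symbol here. The genes described are those whose array symbol begins with Nduf, Uqcr, Cox4 to Cox8, Atp5, or Sdha to Sdhd, with the brightest probe kept for each. They were 94 genes with 118 probes, out of 30367 probes that were not controls. The name of the family fits 79 of them, which were counted as subunits. They were 36 of complex I (NADH dehydrogenase), 4 of complex II (succinate dehydrogenase), 8 of complex III (the cytochrome bc1 complex), 16 of complex IV (cytochrome c oxidase) and 15 of complex V. The symbols also took in 10 assembly factors, which help to build the complexes without remaining in them, and 5 genes that are copies of subunit genes. Ndufa4 was counted with complex IV, where its protein is now placed. Cox7a2l, a factor that joins complexes III and IV, was also counted with the subunits of complex IV.

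Livers of 24 male Wistar rats were measured, 8 per diet and 1 Agilent 1-colour array per rat, after 42 days. All diets held 1% cholesterol. The Ch diet had cholesterol alone, the ChGENE diet also had 5% freeze-dried kiwifruit of the cultivar Geneva (Actinidia arguta), and the ChHAYW diet 5% of the cultivar Hayward (A. deliciosa). No diet without cholesterol was among the samples, so every difference is between cholesterol-fed animals. Arrays of different diets never shared a slide: in every comparison below, the effects of slide and of diet cannot be told apart. The 75th percentile of an array's signal ranged from 188 to 653 intensity units on the Ch arrays, from 388 to 775 on the ChGENE arrays and from 409 to 1049 on the ChHAYW arrays. Ch 4 was the dimmest, with 49.7% of its probes above background, and Ch 7 stood at 335. Levels below are log2 intensities minus the array's own 75th percentile, so that 0 is that percentile; they rank rats for 1 probe and do not rank genes. In whole liver, fewer cells of a type and less RNA per cell cannot be told apart.

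The tissue carried the markers of its label. All 7 hepatocyte markers (Alb, Apoa1, Ttr, Tat, Cps1, Hnf4a and Serpina1) were above background on all 24 arrays. Their summed linear level, in multiples of the 75th percentile, ranged from 1233 to 2199 in Ch, from 1116 to 1809 in ChGENE and from 906 to 1798 in ChHAYW. No marker of any cell type was called in any comparison. The log2 differences of Alb from Ch were -0.51 in ChGENE and -0.59 in ChHAYW (limma adjusted p = 0.115 in both), and those of Ttr -0.52 and -0.57 (adjusted p = 0.107 and 0.125). The other 5 went in both directions: the ChGENE-Ch and ChHAYW-Ch values were -0.34 and -0.28 for Tat, -0.26 and 0.35 for Cps1, 0.22 and 0.014 for Apoa1, 0.035 and 0.019 for Serpina1, and 0.0015 and 0.19 for Hnf4a, and the list's medians were -0.26 and 0.014. The part of this in the results below was not tested.

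Genes of this pathway are known to share promoter motifs, among them those of NRF-1, ETS factors and YY1. RefSeq windows of 300 bases (250 before to 50 after the start, build GRCr8) were matched to 78 of the 94 genes and searched on both strands. The NRF-1 core GCGCATGCG was present for 8 of 78 genes (10.3%) against 1.70% of 27457 genes with a window. The ETS motif CCGGAAGT was present for 8 (10.3% against 4.20%), and the YY1 motif AAGATGGCG for 9 (11.5% against 1.99%). The Sp1 motif GGGCGG, which occurs in many promoters, was present for 34 (43.6% against 36.0%). In all, 24 genes held at least 1 of the first 3 motifs. A match is a description of these letters and not of a bound site. The windows of 5 genes to which the values below return are shown, with the NRF-1 core and YY1 matches in capitals. Ndufa6 (chr7:115750268-115750567, minus strand) had the smallest p in the ChGENE-Ch comparison, Uqcr10 (chr14:83791865-83792164, minus strand) the smallest in the ChHAYW-Ch comparison, and Ndufs7 (chr7:10110449-10110748, minus strand) was the 1 gene whose ranges did not overlap between diets. Atp5i, now Atp5me (chr14:1464610-1464909, plus strand), had the most negative ChHAYW-Ch value among subunits above background on all arrays, and Uqcrc1 (chr8:118467973-118468272, plus strand) was the only gene with a YY1 match beside one of the NRF-1 or ETS motifs.
Ndufa6: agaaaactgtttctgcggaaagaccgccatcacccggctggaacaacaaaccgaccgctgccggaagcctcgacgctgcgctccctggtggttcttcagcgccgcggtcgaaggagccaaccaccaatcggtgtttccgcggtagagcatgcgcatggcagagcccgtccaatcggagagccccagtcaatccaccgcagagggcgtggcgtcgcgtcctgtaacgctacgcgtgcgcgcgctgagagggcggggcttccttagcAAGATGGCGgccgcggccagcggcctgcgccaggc
Ndufs7: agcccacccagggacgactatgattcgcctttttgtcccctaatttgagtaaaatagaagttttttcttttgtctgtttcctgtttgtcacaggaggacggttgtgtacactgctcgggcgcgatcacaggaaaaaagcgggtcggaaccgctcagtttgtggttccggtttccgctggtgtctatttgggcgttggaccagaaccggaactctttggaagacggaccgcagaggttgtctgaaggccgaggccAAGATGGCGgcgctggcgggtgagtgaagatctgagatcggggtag
Atp5i: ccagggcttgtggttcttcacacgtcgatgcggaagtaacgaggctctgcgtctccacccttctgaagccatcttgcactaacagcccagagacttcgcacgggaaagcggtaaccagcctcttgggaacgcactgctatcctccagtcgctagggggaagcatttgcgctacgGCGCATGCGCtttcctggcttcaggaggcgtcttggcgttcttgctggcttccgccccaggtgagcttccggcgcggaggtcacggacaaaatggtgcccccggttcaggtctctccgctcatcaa
Uqcrc1: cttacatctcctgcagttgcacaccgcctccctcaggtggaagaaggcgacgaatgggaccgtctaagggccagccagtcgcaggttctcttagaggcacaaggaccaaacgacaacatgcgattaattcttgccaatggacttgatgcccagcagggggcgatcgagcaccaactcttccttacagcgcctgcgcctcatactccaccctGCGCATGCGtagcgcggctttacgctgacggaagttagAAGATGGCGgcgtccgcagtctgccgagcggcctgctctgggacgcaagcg
Uqcr10: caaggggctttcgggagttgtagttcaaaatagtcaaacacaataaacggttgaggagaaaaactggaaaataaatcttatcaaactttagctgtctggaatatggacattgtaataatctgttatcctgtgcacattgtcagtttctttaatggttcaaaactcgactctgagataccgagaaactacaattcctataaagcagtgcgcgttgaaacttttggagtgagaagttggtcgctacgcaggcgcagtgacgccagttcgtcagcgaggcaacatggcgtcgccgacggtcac
The YY1 match began 15 bases after the annotated start of Ndufa6, 4 bases after that of Ndufs7 and 1 base before that of Uqcrc1. The capitals of Atp5i are 2 overlapping NRF-1 matches, 1 on each strand, and Uqcr10 held none of the first 3 motifs. Across diets, the 8 genes with the NRF-1 core had median log2 differences of -0.11 in the ChGENE-Ch and -0.050 in the ChHAYW-Ch comparison, and the 9 with the YY1 motif -0.13 and -0.27.

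Most genes of the pathway were detected in these livers. Of the 94 genes, 90 (95.7%) were above background on all 24 arrays, against 9891 of 19958 genes of the array (49.6%). The exceptions were Cox6a2, Cox8c and the assembly factors Ndufaf2 and Ndufaf7. Several complex IV subunits exist as a form made in most tissues and a form known from heart and skeletal muscle, and the array held both for subunits 6a and 8. Cox6a1, the general form, was above background in every rat, with levels of 7.30, 7.43 and 8.05 (lowest, median and highest) in Ch. Cox6a2, the muscle form, was above background in 1 of 8 Ch, 1 of 8 ChGENE and 2 of 8 ChHAYW rats. Cox8a, the general form, was above background in every rat, and Cox8c, known from testis, in 1 of 24. Cox8b, a muscle form, was above background in every rat, between -3.45 and -0.76 in Ch, -3.48 and -2.21 in ChGENE, and -3.36 and -2.35 in ChHAYW; its highest value, -0.76, was that of Ch 4. Among 5 skeletal muscle markers, Mb was above background on all arrays, Ckm on 21 (log2 differences from Ch of -0.84 in ChGENE and -0.92 in ChHAYW), Acta1 on 3, Myh4 on 1 and Tnnt3 on none. Their summed level ranged from 0.688 to 1.57 in Ch, 0.520 to 1.21 in ChGENE and 0.596 to 0.960 in ChHAYW. Myh6 and Nppa of the heart and Ucp1 of brown fat were above background on no array, and Tnnt2 and Cidea on all. Cox4i2, a form of subunit 4 known for its response to low oxygen in lung, and Cox6b2, known from testis, were above background in every rat. Cox6b1, Cox7a1, Cox7b2 and Ndufa4l2 had no probe under those symbols.

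The ChGENE-Ch comparison asked whether the Geneva cultivar altered hepatic expression under cholesterol feeding. Genes were called at a Benjamini-Hochberg adjusted p under 0.05, over all 30367 probes, with a fold change of at least 1.3. None of the 94 genes was called by limma, where 0.319% of all probes were. At an unadjusted p under 0.05, 11 genes were lower (11.7% of 94) and none was higher, against 22.9% and 4.07% of all probes. Among probes above background on all 24 arrays, 11.5% were lower and 4.75% higher at that threshold. The median log2 difference of the 94 genes was -0.13, and that of all probes was -0.16, which leaves the genes 0.025 above the array as a whole. That of all genes above background on all 24 arrays was -0.035, and 66 of the 94 genes lay below it. By the other tool run, the methods' t-test, 20 genes (21.3%) had an unadjusted p under 0.05, as did 26.4% of all probes, and none was called after adjustment, as were 0.807% of all probes. No gene had ranges that did not overlap between the diets, as 0.692% of all probes did. Directions are relative to the scaling: with spike-in scaling the median of all probes was 0.31 in place of -0.16 and that of the 94 genes 0.34, and with quantile normalization they were -0.014 and 0.051. The 95% confidence interval lay wholly within a 1.5-fold change in either direction for 68 genes.

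Complex IV had a median of -0.25 in the ChGENE-Ch comparison, with all 16 subunits below 0 and 4 of them (25.0%) at an unadjusted p under 0.05. Of all probes, 66.1% were below 0, and 22.9% were lower at that p. Of all genes above background on every array, these shares were 55.6% and 10.06%, and the median was -0.035. With a mean level of 5 or more they were 87.3% and 40.3%, with a median of -0.26. With a mean level of 2 to 5 they were 67.3% and 11.8%, with a median of -0.086. Mean levels of the 16 subunits ran from -6.63 (Cox8c) to 7.37 (Cox6a1), so none of these groups matches them all. The medians were -0.073 for complex I, -0.20 for complex II, -0.096 for complex III and -0.17 for complex V. All 4 subunits of complex II were below 0. The lowest median was that of complex IV with this scaling and with spike-in scaling. It was that of complex II with quantile normalization, with cyclic loess, and without Ch 4 and Ch 7. The medians of complexes IV and II were -0.041 and -0.076 with quantile normalization and -0.045 and -0.058 with cyclic loess. Without Ch 4 and Ch 7 they were -0.20 and -0.22. With spike-in scaling complex IV turned to 0.22. Of its 16 subunits, 10 were below 0 with quantile normalization, 9 with cyclic loess and 2 with spike-in scaling. Taken as per-rat medians over the 16 genes, complex IV spanned 4.80 to 5.24 in Ch and 4.50 to 5.06 in ChGENE, so that the ranges overlapped. The plot of differences by complex shows the spread of single genes around these medians.

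**Figure D1:**
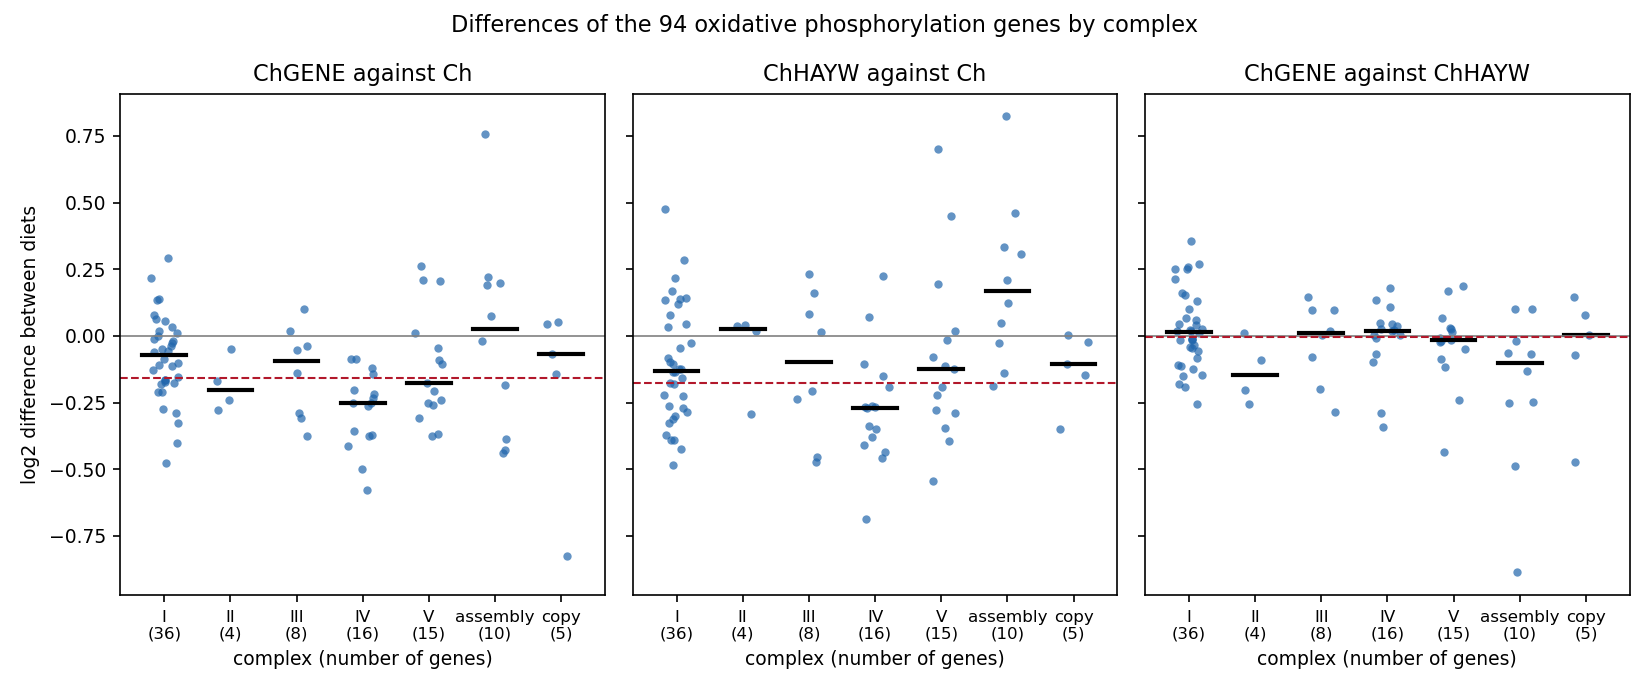
Log2 difference between diets (vertical axis) of each of the 94 genes, grouped by complex (horizontal axis, with the number of genes), in the 3 comparisons. Points are genes, black bars the median of a group, the red dashed line the median of all probes and the grey line 0; with this scaling the bar of complex IV lies at -0.25 and -0.27 in the comparisons with Ch, and in the first of these it is not the lowest of the 5 with quantile normalization or cyclic loess, where complex II is lower.

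Ndufa6, an accessory subunit of the complex I arm that faces the matrix, had the smallest p. Its probe lies at chr7:120726147-120726206 (build rn4, minus strand). Its level ran from 6.35 through a median of 6.51 to 6.96 in Ch, from 5.68 through 6.20 to 6.36 in ChGENE, and from 5.96 through 6.31 to 6.49 in ChHAYW. The lowest Ch rat was just below the highest ChGENE rat, and ChGENE 4 and ChGENE 5 were the lowest of their diet. The ChGENE-Ch difference was -0.48 ± 0.14 (SE), a fold of 0.719, with an adjusted p of 0.0608. It was smaller under other scalings, at -0.19 with quantile normalization, -0.24 with cyclic loess and -0.0083 with spike-in scaling. Without ChGENE 2 (-0.51) and without Ch 3 (-0.48) it was called, as were 10.3% and 16.3% of all probes. With ChHAYW, the difference from Ch was -0.29 ± 0.12 (adjusted p = 0.159).

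Ndufa4, the complex IV subunit with the smallest p, gave like values in both comparisons with Ch. Its levels (probe at chr4:37126182-37126241, rn4, minus strand) were 5.77, 5.95 and 6.29 in Ch, 5.40, 5.60 and 5.81 in ChGENE, and 5.45, 5.53 and 5.78 in ChHAYW, each as lowest, median and highest. Only the lowest Ch rat, Ch 6, fell within the range of either kiwifruit diet. The differences from Ch were -0.38 ± 0.11 (SE, adjusted p = 0.0608) and -0.38 ± 0.10 (adjusted p = 0.110), and that between the kiwifruit diets was 0.0036 ± 0.096. Because both comparisons use the same 8 Ch rats, their likeness is not independent. Without Ch 4 and Ch 7, both were -0.33. With quantile normalization they were -0.12 and -0.21, and with spike-in scaling 0.092 and 0.28.

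The remaining subunits with small p in the ChGENE-Ch comparison were also below 0. Uqcr10 and Uqcrb, small subunits of complex III, differed by -0.31 ± 0.11 and -0.29 ± 0.10 (adjusted p = 0.0779 and 0.0863). With quantile normalization these values were 0.030 and -0.037 and with cyclic loess -0.037 and -0.079, and the second Uqcrb probe gave 0.021. Ndufs5, an accessory subunit of complex I, differed by -0.33 ± 0.12 (adjusted p = 0.0978), and its second probe by -0.16. Cox4i2 differed by -0.37 ± 0.14 (adjusted p = 0.0956), with levels of 1.74, 1.94 and 2.45 in Ch and 1.40, 1.59 and 1.96 in ChGENE, and Cox4i1, the general form, by -0.25 ± 0.15 (adjusted p = 0.308). In the F1 part of ATP synthase, Atp5e differed by -0.37 ± 0.15 and Atp5d by -0.26 ± 0.13 (adjusted p = 0.125 and 0.204). In complex II, which links the citric acid cycle to the chain, Sdhd differed by -0.28 ± 0.16, Sdhc by -0.24 ± 0.17, Sdha by -0.17 ± 0.14 and Sdhb by -0.049 ± 0.12, and the smallest adjusted p was 0.295.

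In the ChHAYW-Ch comparison, which put the Hayward cultivar to the same question, again none of the 94 genes was called, and neither was any probe of the array (0%). At an unadjusted p under 0.05, 24 genes were lower (25.5%) and none was higher, against 21.3% and 3.75% of all probes and 10.7% and 4.25% of probes above background on all arrays. The methods' t-test gave 33 genes (35.1%) at that threshold, beside 24.2% of all probes, and none after adjustment. The median difference was -0.13 for the genes and -0.18 for all probes, and with spike-in scaling these were 0.53 and 0.48. With the main scaling, the median of all genes above background on every array was -0.030, and 58 of the 94 genes lay below it. The genes' intervals lay within a 1.5-fold change for 62 of 94. Without Ch 4 and Ch 7, a choice made after seeing the data, the number with an unadjusted p under 0.05 was 11 (11.7%, beside 14.3% of all probes), and in the ChGENE-Ch comparison it was 10 (10.6%, beside 21.6%).

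Complex IV had a median of -0.27, with 14 of 16 subunits below 0 and 8 genes at an unadjusted p under 0.05; it was -0.10 with quantile normalization and with cyclic loess, and turned to 0.39 with spike-in scaling. Cox8c, whose probe was near background, was among the 14 and among the 8. Complexes I, III and V had medians of -0.13, -0.097 and -0.12, with 9, 2 and 5 genes at that threshold. Of all probes, 66.6% were below 0, and 21.3% were lower at that p. Of all genes above background on every array, these shares were 54.3% and 9.47%. With a mean level of 5 or more they were 79.6% and 31.4%, and with a mean level of 2 to 5 they were 62.0% and 12.8%. Complex II had a median of 0.027, with Sdha, Sdhb and Sdhc at 0.037, 0.039 and 0.017 and Sdhd at -0.29 ± 0.14 (adjusted p = 0.203). The per-rat medians of complex IV spanned 4.80 to 5.24 in Ch and 4.55 to 5.03 in ChHAYW. Without Ch 4 and Ch 7 the medians were -0.19 for complex IV and -0.098 for complex II, which turns the sign of the latter.

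**Figure D2:**
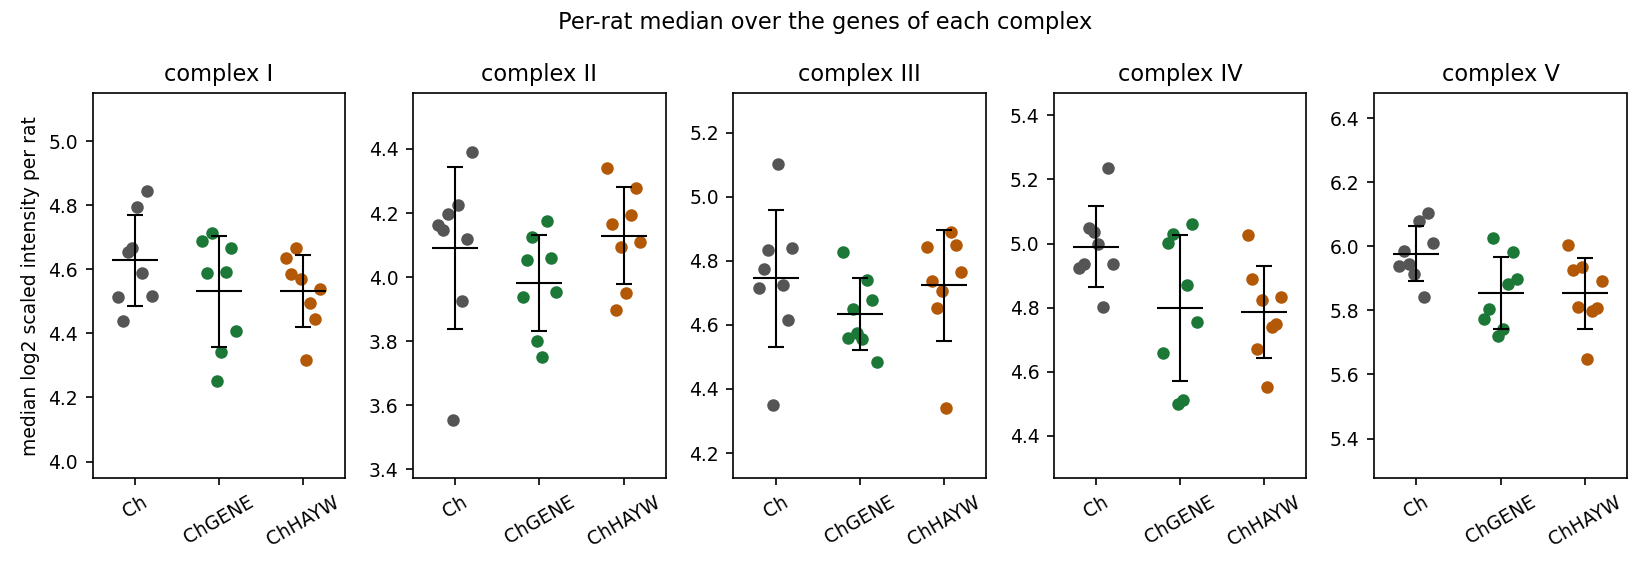
Median log2 scaled intensity over the genes of each complex (vertical axis) in each of the 24 rats, by diet (horizontal axis); points are rats, and bars are the mean and SD of 8 rats. Each panel spans the same height, and the diets overlap in every complex; Ch 4 is the lowest Ch rat in complexes II (3.55) and III (4.35).

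Uqcr10 had the smallest p of the 94 genes in this comparison. Its levels (probe at chr14:85353527-85353586, rn4, minus strand) were 7.18, 7.27 and 7.52 in Ch, 6.81, 6.99 and 7.22 in ChGENE, and 6.62, 6.82 and 7.25 in ChHAYW. All ChHAYW rats but ChHAYW 3 lay below the lowest Ch rat. The difference was -0.45 ± 0.11 (SE), a fold of 0.731, with an adjusted p of 0.110, and it was -0.40 without Ch 4 and Ch 7, -0.20 with quantile normalization, -0.24 with cyclic loess and 0.20 with spike-in scaling. Uqcrh, the hinge subunit beside it in complex III, differed by -0.24 ± 0.10 (adjusted p = 0.155).

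Ndufs7, a core subunit of complex I that holds an iron-sulfur cluster on the path to ubiquinone, was the 1 gene of 94 whose Ch and ChHAYW ranges did not overlap, as was true of 0.0593% of all probes. Its levels (probe at chr7:10963975-10964034, rn4, minus strand) were 4.03, 4.26 and 4.89 in Ch and 3.54, 3.89 and 3.97 in ChHAYW. In ChGENE they were 3.38, 4.33 and 4.67, with ChGENE 4 and ChGENE 5 far below the other 6, all of which were above every ChHAYW rat. The ChHAYW-Ch difference was -0.48 ± 0.13 (adjusted p = 0.110). It was -0.38 with cyclic loess and 0.17 with spike-in scaling. The ChGENE-Ch difference was -0.13 ± 0.20 (adjusted p = 0.724), and the ChGENE-ChHAYW difference 0.36 ± 0.18 (adjusted p = 0.631).

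Ndufb8, an accessory subunit of the complex I membrane arm, differed by -0.37 ± 0.10 (adjusted p = 0.110). Its levels were 5.96, 6.18 and 6.36 in Ch and 5.70, 5.78 and 6.10 in ChHAYW, where ChHAYW 1 stood above the other 7. Cox4i2 differed by -0.41 ± 0.13 (adjusted p = 0.110) and Cox4i1 by -0.27 ± 0.13 (adjusted p = 0.215). Among the other paired forms, Cox6a1 differed by -0.34 ± 0.13 and Cox8a by -0.11 ± 0.11, while Cox8b, with its wide spread, differed by -0.46 ± 0.31, which was -0.22 without Ch 4 and -0.056 without Ch 4 and Ch 7. Cox7a2 and Cox7a2l, the latter a factor that joins complexes III and IV, differed by -0.19 ± 0.11 and -0.26 ± 0.11. The second Cox7a2 probe gave 0.033.

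**Figure D3:**
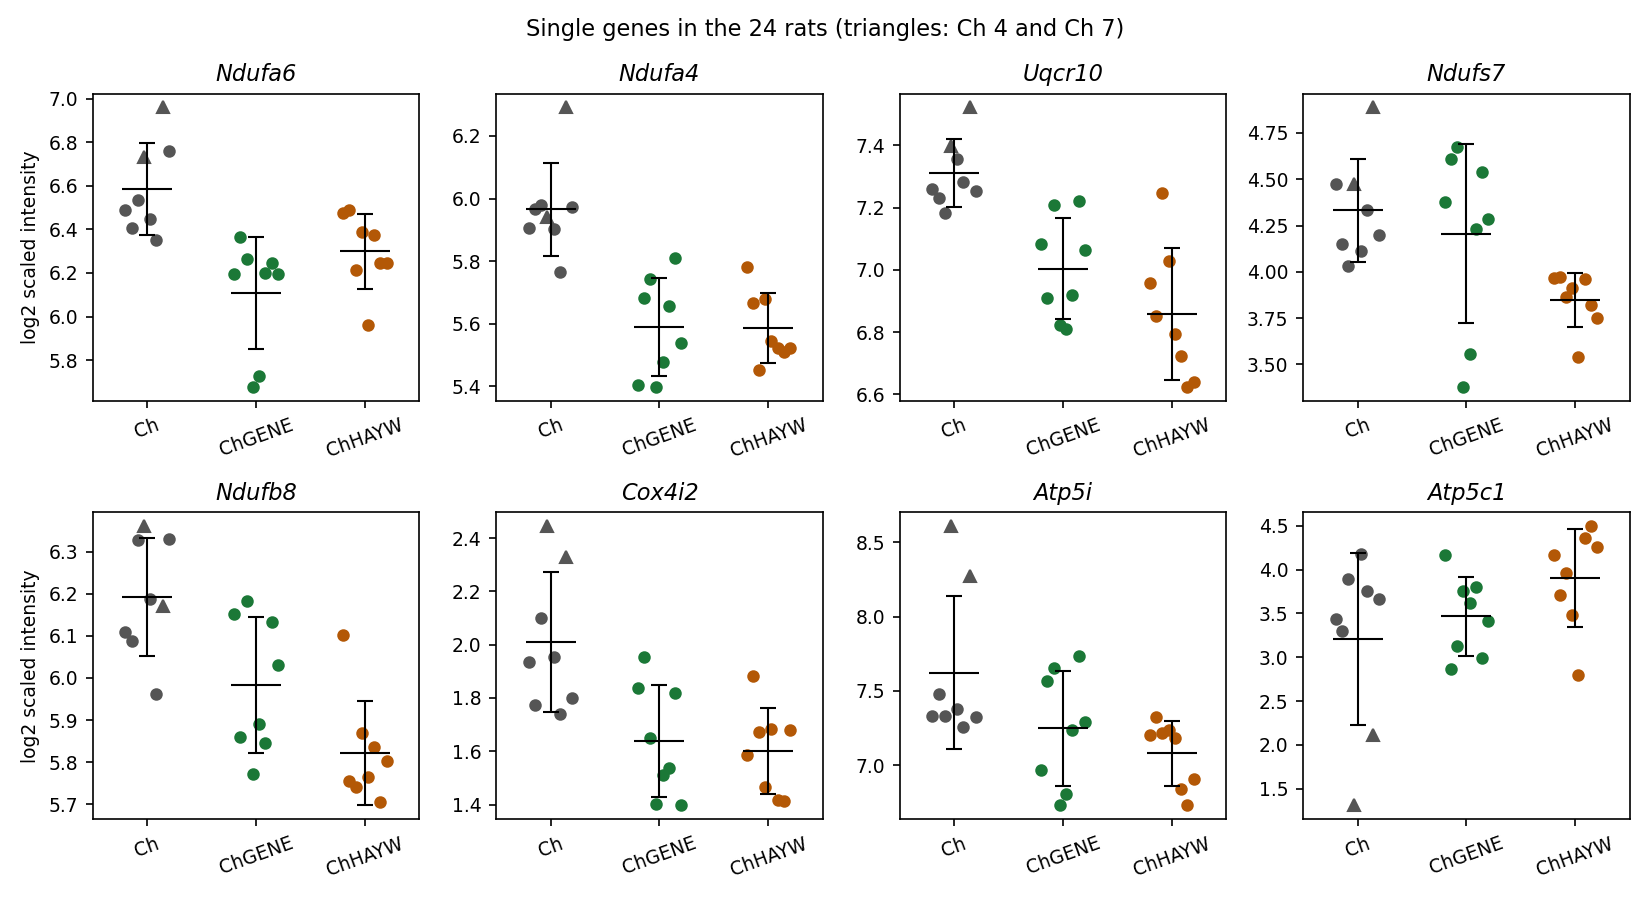
Log2 scaled intensity (vertical axis) of 8 genes in the 24 rats by diet (horizontal axis); points are rats, triangles are Ch 4 and Ch 7, and bars are the mean and SD of 8 rats. For Ndufs7 no ChHAYW rat (highest 3.97) reaches the lowest Ch rat (4.03), while for Atp5i and Atp5c1 the 2 triangles stand at opposite ends of the Ch diet.

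In ATP synthase, 2 Ch rats set much of the size of the differences. Atp5i, a small membrane subunit, had levels of 7.26, 7.36 and 8.61 in Ch, 6.73, 7.26 and 7.73 in ChGENE, and 6.73, 7.19 and 7.32 in ChHAYW (probe at chr14:1868395-1868454, rn4, plus strand). Ch 4 and Ch 7 were the highest of all rats. The ChHAYW-Ch difference was -0.54 ± 0.20 (adjusted p = 0.115) and was -0.27 without those 2 rats; the ChGENE-Ch difference, -0.38 ± 0.22, was then -0.10. Atp5j2 likewise went from -0.39 ± 0.14 to -0.23 in the ChHAYW-Ch comparison. Atp5c1, a subunit of the rotating central stalk, showed the opposite: 1.31, 3.55 and 4.17 in Ch, 2.87, 3.52 and 4.17 in ChGENE, and 2.80, 4.06 and 4.50 in ChHAYW. Ch 4 and Ch 7 were the lowest of all rats. Its ChHAYW-Ch difference of 0.70 ± 0.37 (adjusted p = 0.245) was 0.20 without them, and its ChGENE-Ch difference of 0.26 ± 0.36 was -0.23. Atp5b, the catalytic beta subunit, went from 0.45 ± 0.25 to 0.15 and from 0.21 ± 0.23 to -0.094. Atp5a1, its partner in the F1 head, hardly differed between rats, with levels from 7.17 to 7.67 over all 24. The 3 genes for subunit c, which forms the membrane ring and is the same mature protein from each, had ChHAYW-Ch values of -0.19 ± 0.14 (Atp5g1), -0.28 ± 0.13 (Atp5g2) and 0.19 ± 0.15 (Atp5g3). Without Ch 4 and Ch 7 these were -0.037, -0.15 and 0.060, and with quantile normalization Atp5g1 turned to 0.049.

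**Figure D4:**
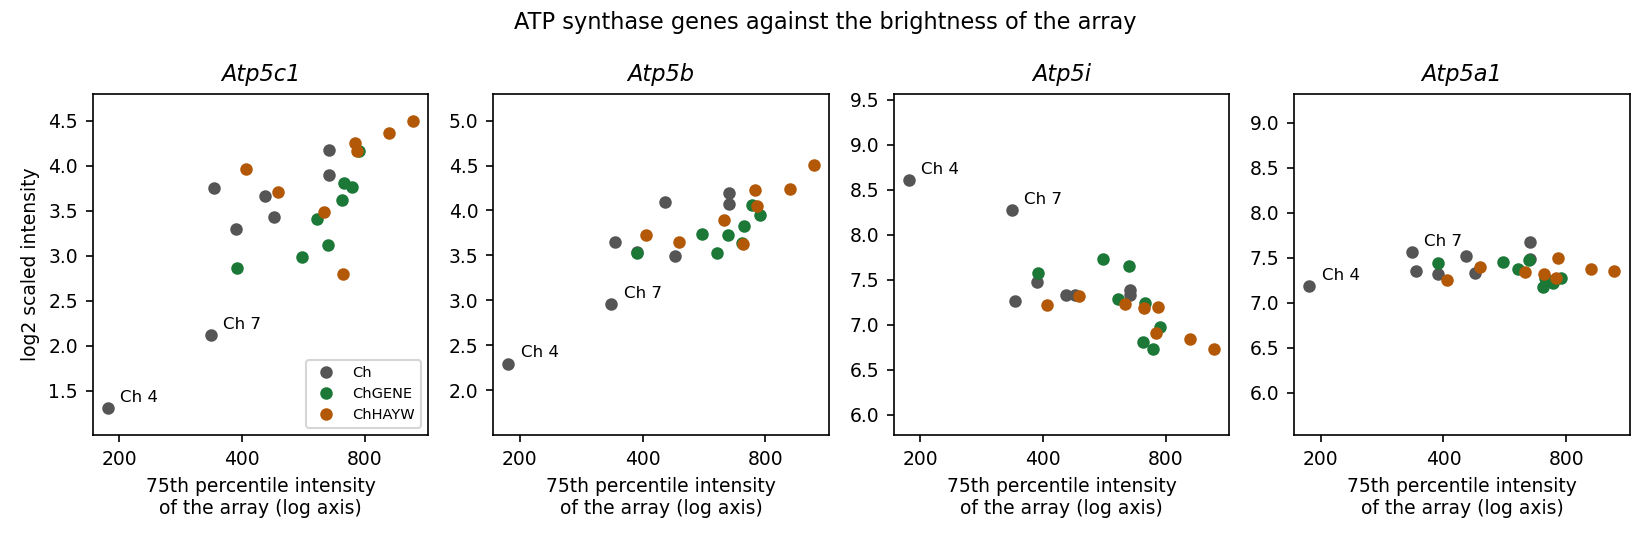
Log2 scaled intensity (vertical axis) of 4 ATP synthase genes against the 75th percentile intensity of the array (horizontal log axis), 1 point per rat, coloured by diet. Ch 4, the dimmest array at 188, and Ch 7, at 335, are lowest for Atp5c1 (1.31 and 2.12) and highest for Atp5i (8.61 and 8.27); Atp5a1 is nearly level.

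None of the 94 genes was called in the ChGENE-ChHAYW comparison, where 0.00659% of all probes were. At an unadjusted p under 0.05, 2 genes were lower in ChGENE (2.13%) and none was higher, against 4.33% and 3.98% of all probes and 6.37% and 5.15% of those above background on all arrays. The methods' t-test gave 6 (6.38%, beside 8.88% of all probes). The count of 2 depends on the setting: with quantile normalization it was 16 (17.0% of 94, beside 9.96% of all probes), with cyclic loess 13 (13.8% beside 9.95%) and with array weights 14 (14.9% beside 15.0%). No ranges failed to overlap, as those of 0.0922% of probes did. The median was -0.0025 for the genes and -0.0052 for all probes, and 80 of 94 intervals lay within a 1.5-fold change. Both of the 2 genes are complex I assembly factors, named here because of their values. Ndufaf6 had levels of 0.23, 1.05 and 1.82 in Ch, -0.22, 0.74 and 1.28 in ChGENE, and 0.75, 1.72 and 2.31 in ChHAYW. The difference was -0.89 ± 0.24, a fold of 0.541, with an adjusted p of 0.242. Ndufaf4 differed by -0.49 ± 0.14 (adjusted p = 0.271), with 0.45, 0.65 and 1.27 in ChGENE and 0.72, 1.17 and 1.55 in ChHAYW. Its 3 further probes gave -0.18, -0.20 and -0.20. Among subunits, the smallest p within each complex belonged to Ndufs4 and Ndufs7 (0.21 ± 0.10 and 0.36 ± 0.18), Sdhc and Sdha (-0.26 ± 0.13 and -0.20 ± 0.13), Uqcrfs1 and Uqcrc2 (-0.28 ± 0.16 and -0.20 ± 0.14), Cox7b and Cox6c (-0.29 ± 0.15 and 0.18 ± 0.12), and Atp5c1 and Atp5b (-0.44 ± 0.24 and -0.24 ± 0.14). The smallest adjusted p among these was 0.604.

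The core subunits were then set apart from the accessory ones, a division made after the values had been seen: the 7 nuclear subunits of complex I that bacteria also have, the Rieske protein and the 2 large so-called core proteins of complex III, and the 5 genes of the F1 part of complex V. In complex III, the core genes Uqcrc1, Uqcrc2 and Uqcrfs1 had a median ChHAYW-Ch difference of 0.16. The 5 accessory genes had a median of -0.24 with 4 below 0, as were 66.6% of all probes. All 3 core genes were above 0 there, but 1 of 3 was without Ch 4 and Ch 7 (Uqcrfs1 at -0.017), and in the ChGENE-Ch comparison 1 of 3 was, with a median of -0.036. Cyc1, the cytochrome c1 subunit of complex III, was in neither group because the symbols did not reach it. Its values were -0.044 (ChHAYW-Ch) and -0.093 (ChGENE-Ch). Over complexes I, III and V, the 15 core genes had medians of -0.052 (ChGENE-Ch) and 0.034 (ChHAYW-Ch), and the 44 accessory genes of -0.12 and -0.18. The brightness of the probes moved with this: among all genes above background on every array, the 583 with a mean level of 5 or more had medians of -0.26 and -0.19, and the 2075 with a mean level of 2 to 5 had -0.086 and -0.070. The 32 pathway genes with a mean level of 5 or more had medians of -0.22 and -0.27, and the 45 with a mean level of 2 to 5 had -0.052 and -0.026. The part of brightness in the difference between core and accessory genes was not tested.

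The median SD between rats of the same diet was 0.216 for the 90 genes above background on all arrays and 0.314 for the 9891 such genes of the array, and 71 of the 90 lay below the latter. With a mean level of 2 or more the medians were closer, at 0.199 for 77 of the genes and 0.272 for 2658 genes of the array. The 4 genes nearer background are not in these values. Ndufaf5, a complex I assembly factor, had the smallest SD (0.110), followed by Atp5a1 (0.122) and Ndufc2 (0.122). Cox6c-ps1, annotated as a pseudogene of Cox6c, had the largest (1.00), with levels of -2.66 and -2.71 in ChGENE 4 and ChGENE 5 and between 0.01 and 1.22 in the other 6 rats of that diet. Atp5c1 (0.703) and Cox8b (0.599) came next. Genes of the same complex had a median correlation of 0.38 in their deviations from the diet means (860 pairs over 24 arrays), and genes of different complexes 0.32 (2066 pairs); all pairs share arrays and their scaling. The values were 0.40 within complexes I and IV, 0.36 within II, 0.22 within V and 0.12 within III.

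Single animals shaped much of that spread. Ch 4 was the lowest Ch rat for 31 of the 90 genes and the highest for 20, which puts it at an end for 56.7% of them and for 56.5% of all genes above background. ChHAYW 5 was the lowest of its diet for 46 of the 90 genes and ChGENE 4 for 40, against 2260 and 2155 of 9891 genes. Ch 7 was the highest for 28 and the lowest for none. The first principal component of the deviations held 48.7% of their variance, with its largest weights on Ch 4 (-0.53) and Ch 7 (-0.35). It set Cox6c-ps1, Cox8b, Ndufa3, Atp5i and Ndufa5, high in those rats, against Atp5c1, Atp5sl, Ndufs8, Ndufaf6 and Atp5b, which were low. The part of array brightness in this was not tested.

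**Figure D5:**
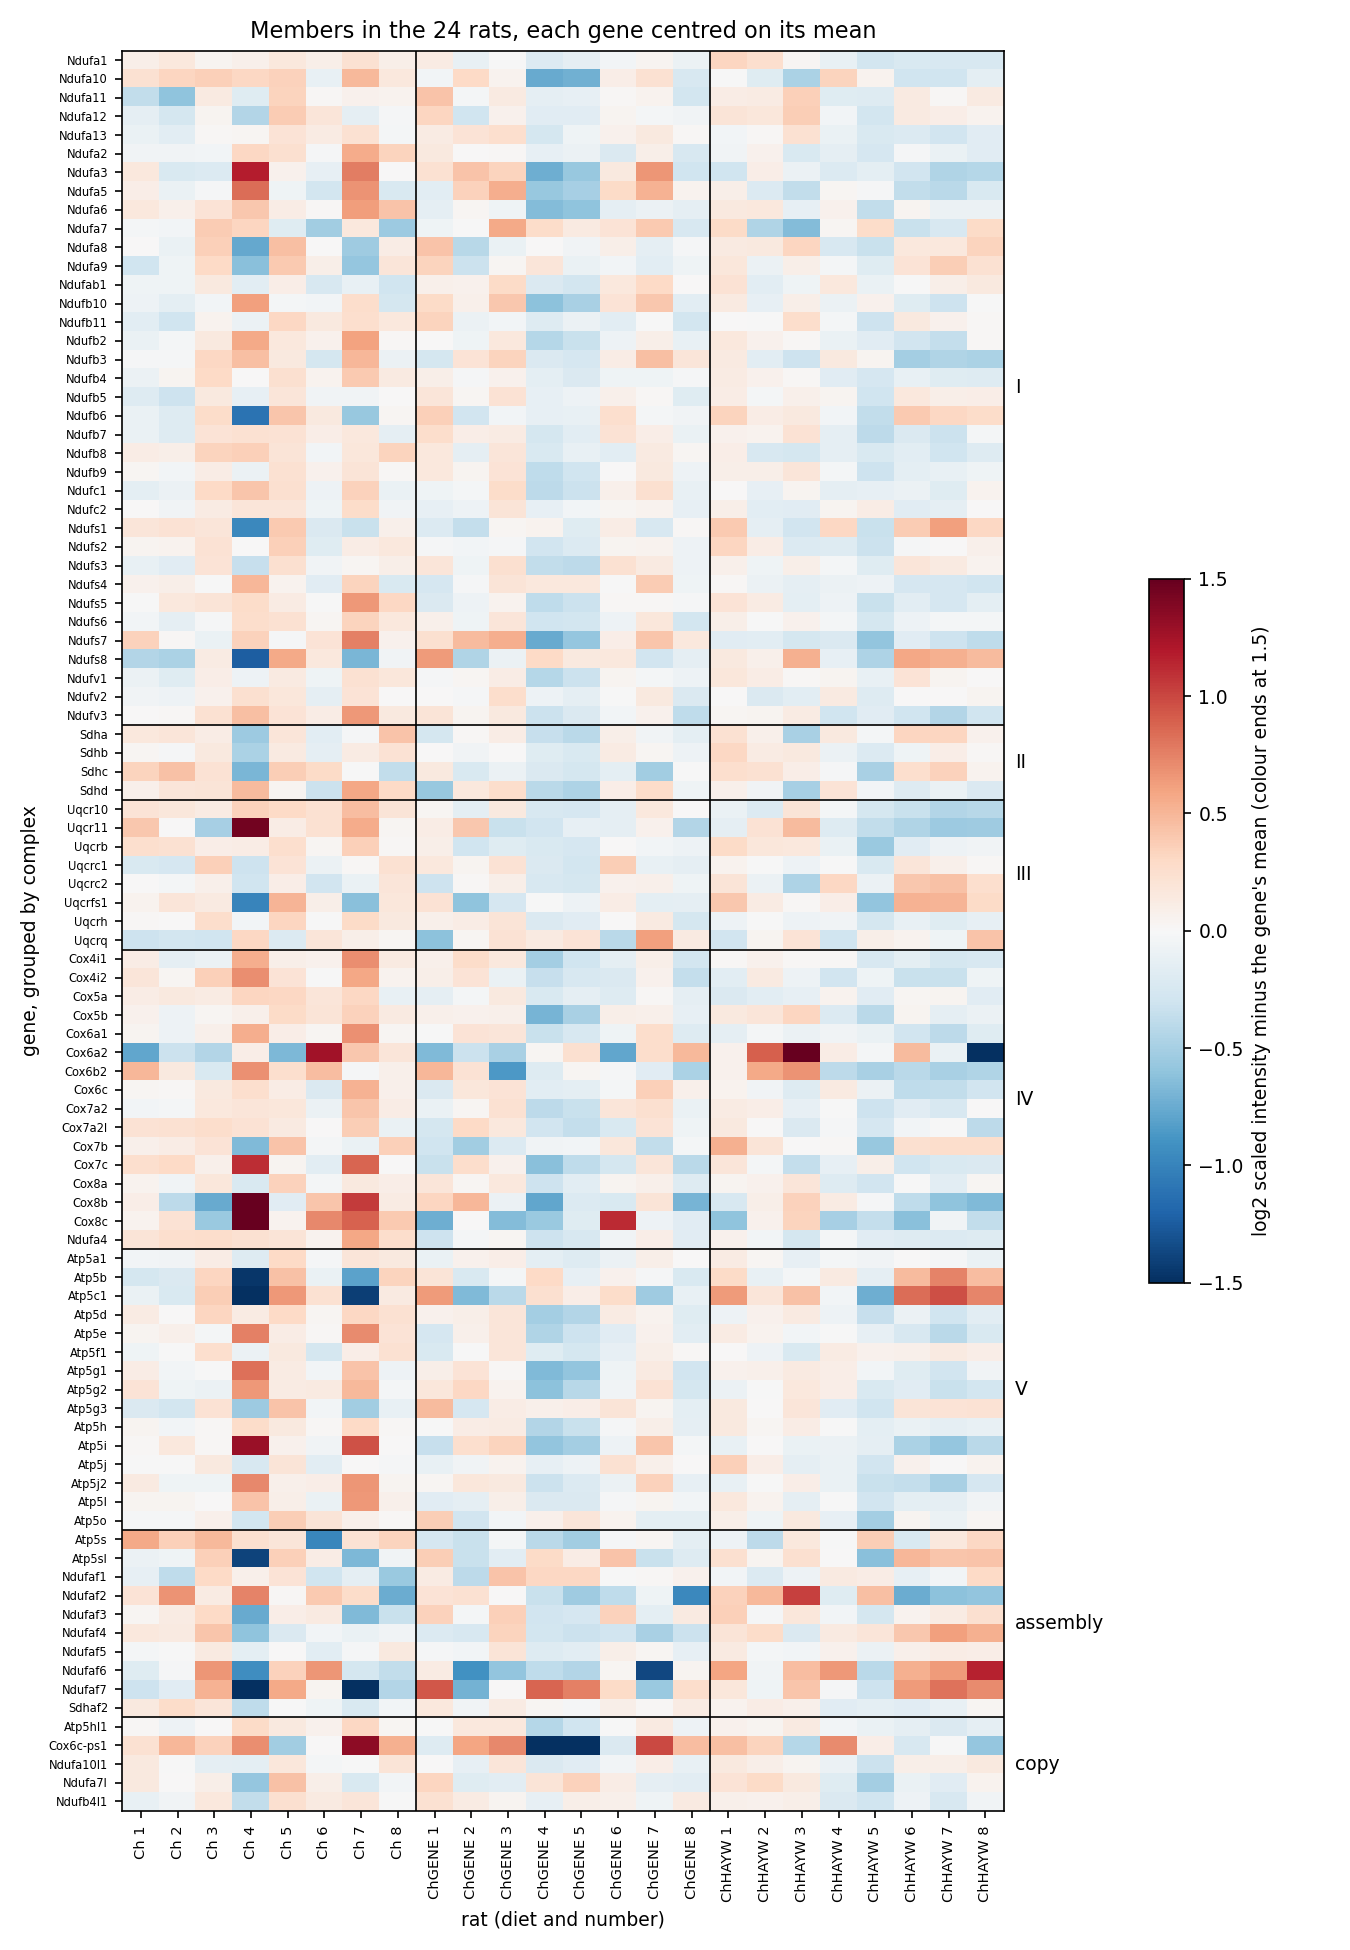
Log2 scaled intensity of the 94 genes (rows, by complex) in the 24 rats (columns, by diet), each gene centred on its mean over all rats; red is above the mean, blue below it, and the colour ends at 1.5. Ch 4 holds dark cells in both directions, such as Cox8b (level -0.76) and Atp5c1 (1.31). Dark blue cells are also those of Cox6c-ps1 in ChGENE 4 and ChGENE 5 (-2.66 and -2.71). ChGENE 4, ChGENE 5 and ChHAYW 5 are blue for most genes.

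For 20 genes the array held more than 1 probe, and 20 of the 24 further probes passed the background flag in every rat. Of these 20, 13 had the sign of the brightest probe in each comparison, and no further probe was called. The median gap between a further probe's log2 difference and that of the brightest was 0.18 in the ChGENE-Ch, 0.25 in the ChHAYW-Ch and 0.13 in the ChGENE-ChHAYW comparison. The genes given as examples were chosen after their values were seen. Both probes of Atp5g2 were lower in ChHAYW than in Ch (-0.28 and -0.43), and both of Atp5l (-0.22 and -0.28). The probes of Ndufv3, an accessory subunit of complex I, gave -0.39, 0.20 and -0.063, those of Atp5j2 -0.39 and 0.017, and those of Uqcr11 -0.47, -0.037 and -0.078. For Ndufv3, Atp5j2 and Uqcr11, the value of the brightest probe therefore does not hold for all probes of the gene.

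Other genes of the pathway were taken from lists that the symbols did not reach. None was called, beside 0.319% (ChGENE-Ch), 0% (ChHAYW-Ch) and 0.00659% (ChGENE-ChHAYW) of all probes. At an unadjusted p under 0.05, 22.9%, 21.3% and 4.33% of all probes were lower in these comparisons, and 4.07%, 3.75% and 3.98% higher. Among probes above background on all 24 arrays, 11.5%, 10.7% and 6.37% were lower, and 4.75%, 4.25% and 5.15% higher. Of 11 measured subunits and carriers, Atpif1, the inhibitor of ATP synthase, was lower in ChGENE than in Ch by -0.40 (adjusted p = 0.0697), and no other had an unadjusted p under 0.05 in any comparison. Of 26 measured assembly factors, 3 had higher values in ChHAYW than in Ch at that threshold: Bcs1l, which inserts the Rieske protein into complex III (0.72), Tmem70 (0.62) and Timmdc1 (0.42); Cox17, a copper chaperone of complex IV, had a lower one (-0.38). Tmem70, which serves ATP synthase, was also higher in ChGENE than in Ch (0.47). Of 15 electron donors and carriers, those at that threshold were Vdac1, the pore of the outer membrane, which was lower in ChGENE and ChHAYW (-0.35 and -0.38), Etfb in ChHAYW (-0.44), and Ucp2, higher in both (1.01 and 0.71), with Dhodh higher in ChGENE (0.38) and Sqrdl and Slc25a4 in ChHAYW (0.62 and 0.65). Bcs1l and Ucp2 were above background in 7 of 8 Ch rats and Slc25a4 in 6 of 8, against 8 of 8 in each kiwifruit diet. None of the 13 citric acid cycle genes had an unadjusted p under 0.05 in any comparison. Of 16 regulators of mitochondrial gene expression, Ppara and Tfb1m were higher in ChHAYW than in Ch (0.53 and 0.36), Twnk, listed on the array as Peo1, was lower (-0.51), and Tfam was lower in ChGENE than in ChHAYW (-0.35), all at unadjusted p under 0.05.

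Markers of other liver cells were measured beside these. The 5 macrophage markers were above background on all arrays and all above 0 in the ChGENE-Ch comparison (median log2 difference 0.79), with a summed level from 19.6 to 45.7 in Ch, 18.5 to 77.6 in ChGENE and 21.7 to 63.3 in ChHAYW, and none had an unadjusted p under 0.05. The 3 erythroid markers summed to 297 to 751, 200 to 629 and 212 to 567, and the 3 endothelial markers to 19.2 to 41.3, 22.2 to 33.1 and 20.2 to 30.4. The 4 stellate cell markers summed to 3.91 to 6.22, 3.18 to 5.01 and 3.73 to 4.84; in ChGENE against Ch, Lrat and Col1a1 were at -0.59 and -0.47 and Reln at 0.39, all at an unadjusted p under 0.05. At that threshold Stab2 was at 0.78 in the ChGENE-Ch comparison, and Col1a1 at -0.48, Kdr at -0.36, Sox9 at -0.58 and Krt7 at -1.08 in the ChHAYW-Ch comparison. The 3 T cell markers reached at most 0.632 and the 3 cholangiocyte markers at most 1.11 in any rat. The shares of all probes at that threshold were those given for the lists above. The part of these markers in the pathway's values was not tested.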

How the data were processed

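Total liver RNA of 24 rats was hybridised to 1-colour Agilent rat arrays, 1 rat per array without pooling. The authors deposited scanner output of Feature Extraction 10.10.1.1 (per the file headers, probe positions in build rn4), whose processed signal is a background-subtracted linear intensity; the value table deposited with it held the same intensities. The deposited flags for spots above background (unit: other) were used as given. The number of arrays limits the precision. RNA of high integrity had been selected by the authors, and nothing says that rats sharing a number belonged together. Here, control spots and outlier spots were left out, spots of a probe averaged, log2 taken and each array's 75th percentile subtracted. Each pair of diets (16 arrays) was fitted over all 30367 probes with lmFit and eBayes (limma 3.58.1, R 4.3.3; Python 3.11.15), with Benjamini-Hochberg adjustment; intervals are 95%. Named were genes called in any comparison, the 2 subunits of each complex with the smallest p in each comparison, all complex II subunits, the subunit c genes, complex IV isoforms, and the 3 least and 3 most variable genes; any other was picked with its values in view. The genes and lists were chosen with earlier results of these data known. Current names came through RefSeq transcripts for 83 of the 94 genes. The code was tested on simulated data. Alternatives were another background correction, other scalings, a filter on dim probes, the mean of a gene's probes, other limma settings, the methods' t-test, no fold threshold, a replicate block and leaving out arrays. Mitochondrial DNA genes were not analysed here.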

Additional observations from a re-analysis of the deposited data

Results flagged for a closer look

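A rat far from the others of its diet was looked for in 144 sets of 8 values (43 genes and the median of each complex, in 3 diets), by Dixon's ratio of the gap to the whole range, at its 95% critical value; chance flags about 1 in 20 such sets, and 8 were found. On the low side, ChHAYW 5 stood apart for the complex III median (4.34 against 4.65 to 4.89, ratio 0.569), for Uqcrfs1, the Rieske iron-sulfur protein (3.51 against 4.13 to 4.63, 0.552), and for Sdhc, a membrane anchor of complex II (2.99 against 3.45 to 3.81, 0.559). Sdha, the flavoprotein of complex II, was low in ChHAYW 3 (3.69 against 4.14 to 4.50, 0.554). On the high side, Ndufa4 was high in Ch 7 (6.29 against 5.77 to 5.98, 0.596), and Ndufb8 in ChHAYW 1 (6.10 against 5.70 to 5.87, 0.586). The assembly factor Ndufaf4 was high in ChGENE 3 (1.27 against 0.45 to 0.73, 0.659). Cox8c, above background in 1 of 24 rats, was high in ChGENE 6 (-5.51 against -7.37 to -6.63, 0.602). The causes were not tested.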

How the results depend on the processing

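No gene was called in the ChGENE-ChHAYW comparison under any alternative run. In the ChGENE-Ch comparison the count of 0 became 4 with normexp background correction (Ndufa6, Cox8c, Ndufaf2 and Atp5s, where 33.6% of all probes were called), 2 with median scaling (Ndufa6 and Ndufa4; 15.2%) and 1 with all 24 arrays in 1 fit (Ndufa6; 9.43%); leaving out single arrays gave 0 to 2, with 2 (Ndufa6 and Ndufa4) without ChGENE 2 and 1 (Ndufa6) without Ch 3. In the ChHAYW-Ch comparison it became 3 with normexp (Atp5i, Cox8c and Ndufs7; 37.8%), 7 with median scaling (10.7%) and 6 with array weights (18.8%); leaving out single arrays gave 0 to 4, with 4 without ChHAYW 3 (15.1%) and 4 without Ch 3 (12.1%). All genes called in these fits were lower with kiwifruit. The causes were not tested. Under the other alternatives, among them the filter on dim probes (91 genes left), the mean of a gene's probes, no fold threshold, the methods' t-test after adjustment, and the removal of Ch 4 and Ch 7, the counts were 0.

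Scaling moved the medians, and that of all probes with them. Spike-in scaling gave median differences of the 94 genes of 0.34, 0.53 and -0.19 (ChGENE-Ch, ChHAYW-Ch and ChGENE-ChHAYW), beside 0.31, 0.48 and -0.19 for all probes. For complexes I to V they were 0.40, 0.27, 0.37, 0.22 and 0.29 in the ChGENE-Ch comparison, and 0.53, 0.68, 0.56, 0.39 and 0.53 in the ChHAYW-Ch comparison; in the ChGENE-ChHAYW comparison they were -0.17, -0.33, -0.18 and -0.20 for complexes I, II, III and V. Quantile normalization gave 0.051 and -0.014 for the 94 genes in the comparisons with Ch, -0.041 and -0.10 for complex IV, and 0.087 and 0.048 for complex V. Cyclic loess gave 0.059 and -0.0031 for the 94 genes, -0.045 and -0.10 for complex IV, 0.031 and 0.034 for complex V, and 0.076 for complex III in the ChGENE-Ch comparison. The signs of complexes thus depend on the scaling, as does the sign of the 94 genes as a whole. Without single arrays the medians of the 94 genes ran from -0.17 to -0.090, -0.15 to -0.11, and -0.029 to 0.026.

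Rats that share a number share a position on their slides. Their deviations had correlations from -0.20 to 0.21 (ChGENE and Ch), -0.35 to 0.14 (ChHAYW and Ch) and -0.23 to 0.23, with 0, 0 and 2 of 8 rats best with their own number, so the numbers were not taken to pair them. With the replicate block, 0 genes were called in each comparison, and 4, 0 and 0 of all probes. None of the 43 genes followed was called to begin with, and many values turned their sign with the scaling: in the ChGENE-Ch comparison 18 of 43 did with quantile normalization, 17 with cyclic loess and 36 with spike-in scaling, and in the ChHAYW-Ch comparison 3, 3 and 28. Without Ch 4 and Ch 7, 4 and 5 did. Among those named, with quantile normalization Cox4i1 went from -0.25 to 0.075 (ChGENE-Ch) and Atp5g1 from -0.19 to 0.049 (ChHAYW-Ch), and Atp5c1 went from 0.26 to -0.0078 (ChGENE-Ch) without Ch 4. Levels of probes near background limit what Cox6a2, Cox8c, Ndufaf2 and Ndufaf7 can show.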
